A study of Homo sapiens with 6 samples.

Results

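The transcripts of 42 genes of RNA 3′ end formation and transcription termination were compared between SPT5-AID cells in which ARMC5 was knocked down and their control. The 42 genes were taken from a list of gene names. They are the 14 Integrator genes INTS1 to INTS14 and 28 genes of cleavage, polyadenylation and termination, out of 13737 genes that could be tested, and all 42 could be tested. SPT5-AID is a line made from DLD-1, a human colorectal adenocarcinoma line, in which the elongation factor SPT5 carries an auxin-inducible degron. Both groups share this genotype, and no auxin is named in the labels of any library. One group was treated with an shRNA against ARMC5 (shARMC5) and the other with a nontargeting shRNA (shNT). Each group had 3 replicates, and polyadenylated RNA was sequenced. The labels do not say whether the replicates came from separate infections, so that the P values measure only the spread between these libraries. The series was designed around Pol II stability near promoters, and the comparison here asks whether the mRNAs of the factors that cut, process and terminate Pol II transcripts differ when ARMC5 is lowered.

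Integrator is a complex that rides with Pol II close to promoters, cuts the nascent RNA with one module and removes phosphates from Pol II and SPT5 with another. It ends unproductive transcription there and forms the 3′ ends of small nuclear RNAs. Further downstream, the cleavage and polyadenylation machinery recognizes the poly(A) signal, most often AAUAAA, cuts the pre-mRNA and adds the tail. An exonuclease then degrades the RNA that is still attached to Pol II.

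The authors assigned 26201112 to 40866478 reads to transcripts in each library with salmon, and the shares that matched no annotated gene lay between 2.96% and 3.04%. ARMC5, the target of the shRNA, was at 10.8, 12.0 and 12.9 CPM in shARMC5 and at 23.0, 25.9 and 26.7 CPM in shNT cells. CPM is reads per 1000000 on genes, normalized between libraries with the TMM factors of edgeR. Of 9 markers of colorectal epithelium, 8 were above 1 TPM in every library, with EPCAM between 982 and 1051 TPM, and CDX1 was listed at 0. TPM is transcripts per 1000000, a level corrected for transcript length. The summed level of these 9 markers was 8561 to 8864 TPM in shARMC5 and 7574 to 8091 TPM in shNT cells, and its part in the results below was not tested. The sum was carried by the keratins KRT8 and KRT18, and the list did not move one way. The 3 keratin genes were higher in every shARMC5 library than in any shNT library, VIL1 (2.95 to 4.23 against 7.67 to 9.91 TPM) and CDH17 (29.6 to 32.9 against 34.3 to 39.1 TPM) were lower in every one, and EPCAM, CDH1 and CDX2 overlapped. None of 4 leukocyte, 4 fibroblast and 3 endothelial markers was above 1 TPM in every library, and the summed level of each list stayed at or under 1.31 TPM.

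Relative to the other mRNAs of each library, those of this machinery were nearly level between the groups. A change shared by all mRNAs would not show, because each library was scaled by its own reads. CLP1, a subunit of cleavage factor II, was higher in shARMC5 cells by 1.15-fold, and INTS14, a subunit of Integrator, was lower at 0.918 of its shNT level. No other of the 42 genes passed the test. A gene is called here at an adjusted P value under 0.1 from edgeR's quasi-likelihood F test, adjusted over all 13737 genes with the Benjamini-Hochberg method. With this rule 7.75% of all genes tested were called, 4.44% as higher and 3.3% as lower, and the calls among the 42 were 1 higher and 1 lower. The median log2 fold change of the 42 genes was -0.011, beside -0.0014 over all genes. Of the 42, 19 had a positive and 23 a negative log2 fold change. An unadjusted P value under 0.05 was found for 5 of them, INTS1, INTS10, INTS14, CSTF3 and CLP1, where 18.1% of all genes had one. In CPM the libraries of the groups did not overlap for 7 of the 42 genes, 3 higher and 4 lower, where 23.4% of all genes did not overlap.

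**Figure D1:**
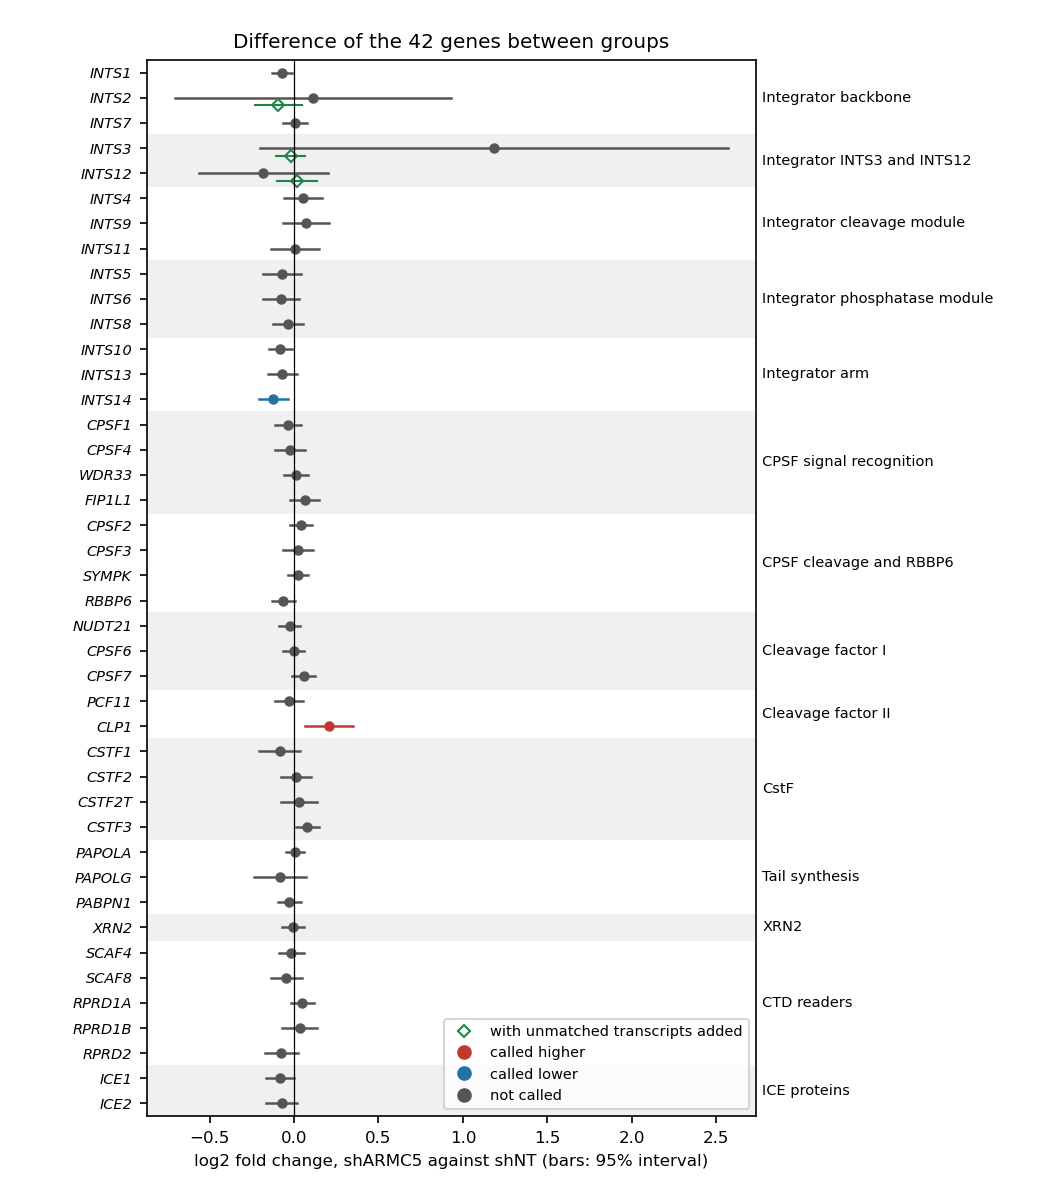
Log2 fold change of each of the 42 genes between shARMC5 and shNT cells, with its 95% interval as a bar, grouped by role. Red marks the gene called higher, blue the gene called lower, grey the genes not called, and green diamonds the values of INTS2, INTS3 and INTS12 after reads on unmatched transcripts were added. Apart from these 3 genes and CLP1, every interval lies within 0.25 on either side of 0.

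The intervals say how large a difference the fit used here leaves room for. For 38 of the 42 genes the 95% interval of the log2 fold change lay within 0.25 on either side of 0, where 53.8% of all genes had so narrow an interval. The exceptions were CLP1, INTS2, INTS3 and INTS12. Without INTS2, INTS3 and INTS12, no gene that was not called had a log2 fold change beyond 0.085 in size, and the standard errors of the 39 remaining genes lay between 0.024 and 0.071. This limit is that of the fit used throughout, on all 6 libraries with TMM scaling and no offset for transcript length. With library size as the only scaling in edgeR, CSTF1 was at -0.099, PAPOLG at -0.098 and ICE1 at -0.097. PAPOLG reached -0.15 without shNT replicate 3 and -0.14 without shARMC5 replicate 1, where RPRD2 was at -0.13. With the offset in edgeR or DESeq2, INTS13 was at -0.16, INTS8 at -0.15 and NUDT21 at -0.12, and none of these values was called. Intervals could be wider there as well. In edgeR the standard error of INTS8 was 0.09 with the offset and 0.04 without it. That of INTS6 was 0.11 beside 0.05, and that of CPSF7 0.035 beside 0.033.

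The Integrator backbone holds INTS1, INTS2 and INTS7. INTS1, the largest subunit, had the highest level of them with 63.4 ± 4.9 TPM (SD, n = 3) in shNT cells. In shARMC5 cells it was at 244, 242 and 231 CPM and in shNT cells at 254, 253 and 247 CPM. In CPM every shARMC5 library was below every shNT library, and the log2 fold change was -0.07 ± 0.03 (SE, adjusted P = 0.175 by edgeR). The direction turned with an offset for transcript length (log2 fold change 0.03 in edgeR and in DESeq2), and in TPM the groups overlapped, with 64.0 ± 6.2 in shARMC5 cells (SD, n = 3). INTS2, described further down, had the lowest level of the backbone with 4.96 ± 1.6 TPM (SD, n = 3, shNT) from its listed reads. INTS7 was at 77.2, 76.7 and 76.9 CPM in shARMC5 and at 77.4, 76.6 and 76.1 CPM in shNT cells. Its groups overlapped, and its 95% interval ran from -0.07 to 0.08.

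The arm of Integrator is formed by INTS10, INTS13 and INTS14, of which INTS13 and INTS14 bind each other and INTS10 joins them. In CPM, all 3 genes were lower in every shARMC5 library than in any shNT library, where 23.4% of all genes had groups that did not overlap in either direction, and 1 of the 3 was called. In TPM the groups overlapped for INTS10 and INTS14. The log2 fold changes of the 3 genes kept their sign in 15 of 15 alternatives, but their size moved with an offset for transcript length, for INTS10 from -0.08 to -0.02 (adjusted P = 0.887 by edgeR) and for INTS13 from -0.07 to -0.16 (adjusted P = 0.274). INTS14 (ENSG00000138614) spans chromosome 15 from 65578753 to 65611289 on the minus strand of GRCh38. It was at 58.5, 61.4 and 57.8 CPM in shARMC5 and at 64.5, 65.8 and 63.6 CPM in shNT cells. The 3 shARMC5 libraries all lay below the lowest shNT library. Its log2 fold change was -0.12 ± 0.04 (SE, adjusted P = 0.0950 by edgeR), from 1458 to 2423 reads per library. The call of INTS14 was close to the threshold. It was lost when any of the 6 libraries was left out, with adjusted P values from 0.105 to 0.238 in edgeR's test, with DESeq2 (adjusted P = 0.199) and with an offset for transcript length in edgeR (0.378) or DESeq2 (0.350). Over 15 alternatives the adjusted P ran from 0.0446 to 0.378.

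INTS10 had the highest level of the 14 Integrator genes with 72.8 ± 3.8 TPM (SD, n = 3) in shNT cells. Its libraries were at 102, 105 and 102 CPM in shARMC5 and at 111, 109 and 107 CPM in shNT cells, a log2 fold change of -0.08 ± 0.03 (SE, adjusted P = 0.187 by edgeR). INTS13 had the lowest level of the arm with 42.7 ± 2.9 TPM (SD, n = 3). It was at 55.8, 58.4 and 58.9 CPM in shARMC5 and at 60.3, 59.5 and 61.8 CPM in shNT cells, with an adjusted P of 0.400 from edgeR's test.

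The main transcripts of INTS14 differed between the groups in opposite directions, though neither passed edgeR's test. Most of the reads were on INTS14-201, which encodes the protein, and on INTS14-217, which the annotation marks as a target of nonsense-mediated decay. Both have 12 exons. In the annotation their first exons end at splice donors that lie 302 bases apart, the donor of INTS14-217 being further downstream, and they then join the same second exon at 65607159 to 65607442. The donors are shown because they set the transcripts apart, each with the last 10 bases of the exon and the first 20 of the intron, 5′ to 3′ on the minus strand of GRCh38, and with the first bases of the intron in capitals.
INTS14-201, chr15:65611078-65611107: tgggcacgggGTgagtggggaggccgaggg
INTS14-217, chr15:65610776-65610805: gatttttaagGTaaaaatacatctcccaga

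INTS14-217 was at 8.27, 9.61 and 9.15 TPM in shARMC5 and at 13.5, 13.3 and 12.6 TPM in shNT cells. INTS14-201 was at 25.0, 23.4 and 23.1 TPM in shARMC5 and at 22.7, 22.6 and 21.1 TPM in shNT cells. The shARMC5 libraries were thus lower for the decay transcript and higher for the coding one, with no overlap for either. As a share of their sum, INTS14-217 made up 27.4% ± 2.3 (SD, n = 3) in shARMC5 and 37.2% ± 0.22 (SD, n = 3) in shNT cells, with P = 0.1 in a two-sided exact permutation test, which cannot go lower with 3 libraries against 3. Fitted on its own, INTS14-217 had a log2 fold change of -0.51 ± 0.08 (SE, unadjusted P = 0.000988, adjusted P = 0.282 by edgeR over 49809 transcripts). INTS14-201 had 0.13 ± 0.05 (SE, adjusted P = 0.965). Neither was called with edgeR, and DESeq2 called INTS14-217 (adjusted P = 1.73e-06). The reads that the transcripts share were divided between them by salmon. The INTS14-201 of the deposited files is 2393 bases long and that of the annotation 2304 bases, so that its first exon may differ from the one described.

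**Figure D2:**
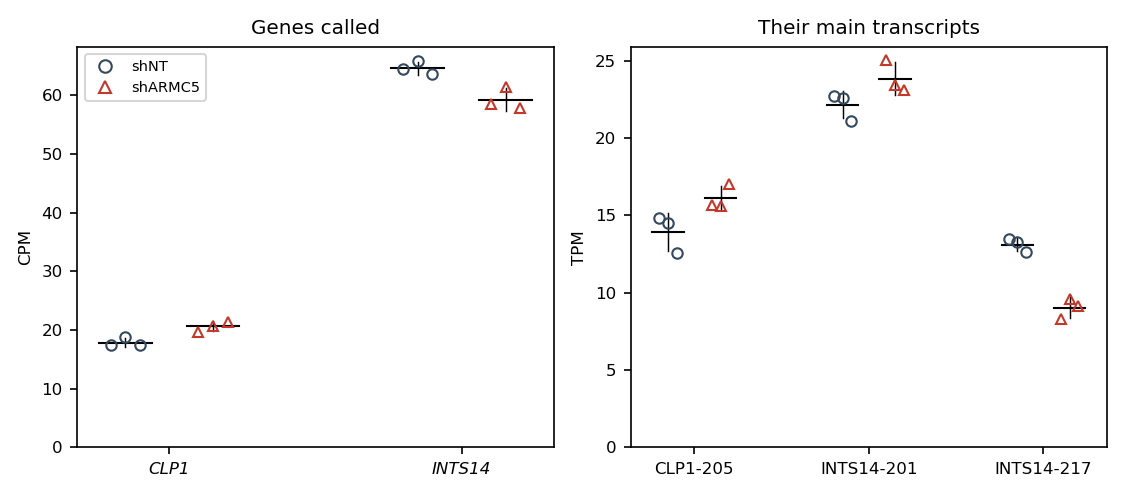
Left, the level of CLP1 and INTS14 in CPM. Right, the level of their main transcripts in TPM. Each symbol is 1 library, circles for shNT and triangles for shARMC5, with the mean and SD of 3 as lines. INTS14-217 lies lower in all 3 shARMC5 libraries, between 8.27 and 9.61 TPM, while INTS14-201 lies slightly higher.

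The cleavage module holds INTS11, the endonuclease, its inactive partner INTS9 and the scaffold INTS4. None of the 3 genes was called, and their log2 fold changes lay between 0.003 and 0.07. INTS11 had the highest level with 47.9 ± 6.5 TPM and INTS9 the lowest with 14.9 ± 0.14 TPM (SD, n = 3, shNT). INTS11 was at 40.7, 41.7 and 45.6 CPM in shARMC5 and at 41.4, 39.4 and 46.9 CPM in shNT cells. The shNT libraries span those of shARMC5, and the 95% interval ran from -0.14 to 0.15.

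The phosphatase module joins protein phosphatase 2A to Integrator through INTS5, INTS6 and INTS8. The log2 fold changes of the 3 genes ran from -0.08 to -0.03, with overlapping groups and adjusted P values of at least 0.464 in edgeR's test. With an offset for transcript length in edgeR or DESeq2, that of INTS6 turned to 0.04 and that of INTS8 went from -0.03 to -0.15. INTS8 was the highest with 43.9 ± 1.2 TPM and INTS5 the lowest with 20.5 ± 1.6 TPM (SD, n = 3, shNT).

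INTS3, which also belongs to a sensor of single-stranded DNA, had the largest log2 fold change of the 42 genes and the widest interval. Its listed reads gave 48.2, 46.4 and 41.2 CPM in shARMC5 and 33.7, 16.6 and 9.03 CPM in shNT cells. The groups did not overlap, and the shNT libraries differed widely among themselves. The log2 fold change was 1.19 ± 0.51 (SE, 95% interval from -0.20 to 2.57, adjusted P = 0.340 by edgeR), and INTS3 was not called. This value rests on 1 transcript. Of the 11 transcripts that the annotation gives INTS3, only INTS3-201 of 5252 bases was listed under an identifier that the annotation holds.

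The files also list a run of 11 consecutive transcripts whose identifiers match no annotated gene. Of these, 10 have the same length as an annotated INTS3 transcript. The first of the run, ENST00000576030, of 5235 bases, held 0 reads in all 3 shARMC5 libraries and 244, 800 and 1040 reads in shNT replicates 1, 2 and 3. INTS3-201 held 1101, 538 and 253 reads in the same shNT libraries. The reads of the one were thus high where those of the other were low. The whole run held 1426, 1664 and 1242 reads in shARMC5 and 2043, 2309 and 2379 reads in shNT libraries.

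With the run added to INTS3, a choice made after seeing the data, INTS3 was at 94.5, 87.9 and 89.8 CPM in shARMC5 and at 95.5, 87.2 and 93.2 CPM in shNT cells. The groups then overlapped. The log2 fold change became -0.02 ± 0.04 (SE, 95% interval from -0.11 to 0.07, adjusted P = 0.861 by edgeR). The level in shNT cells rose from 5.35 ± 3.6 to 30.8 ± 2.6 TPM (SD, n = 3), which takes INTS3 from next to last to place 27 in the order of the 42 genes.

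INTS2 of the backbone and INTS12, which carries a PHD finger, were the other genes with wide intervals, and both had a transcript without a match listed right after their own. INTS2 was at 16.9, 20.8 and 16.0 CPM in shARMC5 and at 13.0, 13.5 and 23.6 CPM in shNT cells. Its log2 fold change was 0.11 ± 0.30 (SE). The transcript listed after it, of 5805 bases, held 438 to 761 reads, and with it INTS2 was at 32.8, 37.1 and 32.4 CPM in shARMC5 and at 35.2, 34.9 and 39.3 CPM in shNT cells. The log2 fold change then was -0.09 ± 0.06 (SE, adjusted P = 0.493 by edgeR). For INTS12, which had 26.7 ± 1.8 TPM (SD, n = 3, shNT) and a log2 fold change of -0.18 ± 0.15 (SE), the listed reads gave 20.3, 27.9 and 20.9 CPM in shARMC5 and 24.3, 25.1 and 29.5 CPM in shNT cells. The transcript after it held 0 reads in shNT replicate 3, the library in which INTS12 was highest, and 176 to 321 reads in the others. With it the log2 fold change was 0.02 ± 0.06 (SE, adjusted P = 0.903 by edgeR). That these added transcripts belong to INTS3, INTS2 and INTS12 rests on their lengths or their place in the files. Left as listed, INTS2 was called higher without shNT replicate 3 (log2 fold change 0.44, adjusted P = 0.0478 by edgeR) and INTS12 lower without shARMC5 replicate 2 (-0.35, adjusted P = 0.0456).

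**Figure D3:**
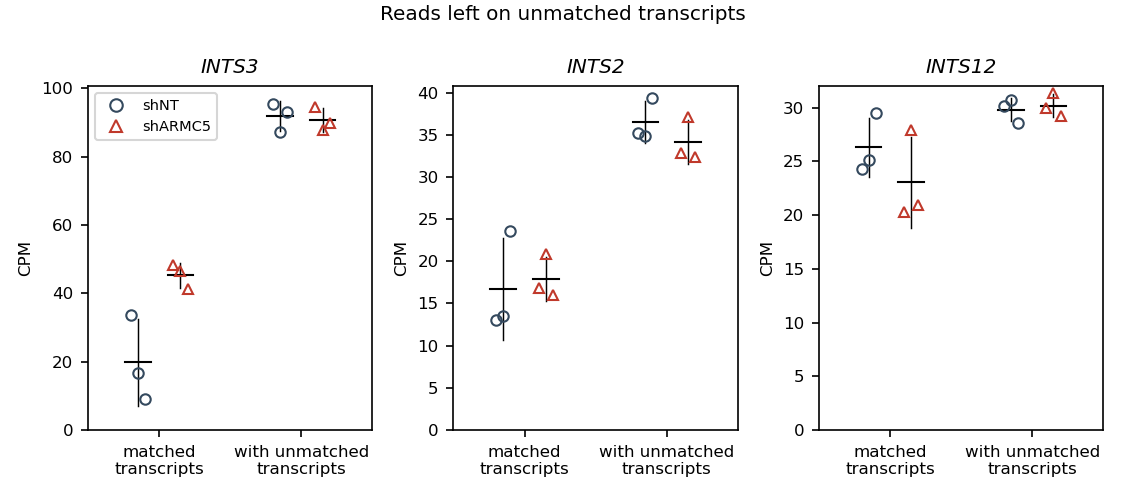
Level of INTS3, INTS2 and INTS12 in CPM from their matched transcripts alone and with the unmatched transcripts added. Each symbol is 1 library, circles for shNT and triangles for shARMC5, with the mean and SD of 3 as lines. With the added reads the libraries draw together, for INTS3 to between 87.2 and 95.5 CPM, and the groups overlap.

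CPSF, the complex that finds and cuts the poly(A) site, has a part that reads the signal. It is made of the scaffold CPSF1, the signal-binding subunits CPSF4 and WDR33, and FIP1L1, which recruits poly(A) polymerase. None of the 4 genes was called, and their log2 fold changes ran from -0.04 to 0.06. CPSF1 was the highest with 62.9 ± 4.6 TPM and WDR33 the lowest with 37.4 ± 0.63 TPM (SD, n = 3, shNT). CPSF4, the signal reader with zinc fingers, was at 56.7, 57.5 and 61.9 CPM in shARMC5 and at 58.7, 60.5 and 59.5 CPM in shNT cells. The shARMC5 libraries spanned those of shNT.

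The cutting part of CPSF holds the endonuclease CPSF3, its inactive relative CPSF2 and the scaffold SYMPK, and RBBP6 activates it. None of the 4 was called. CPSF3 was at 96.7, 106 and 94.7 CPM in shARMC5 and at 98.9, 99.2 and 94.2 CPM in shNT cells, with overlapping groups and a 95% interval from -0.06 to 0.11. CPSF2 was the highest with 76.7 ± 3.8 TPM and RBBP6 the lowest with 39.1 ± 2.2 TPM (SD, n = 3, shNT). RBBP6 had a log2 fold change of -0.06 ± 0.03 (SE, adjusted P = 0.308 by edgeR).

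The nucleases of both complexes are relatives, as are their inactive partners. CPSF3 stood at 1.42 ± 0.23 times the TPM of INTS11 and CPSF2 at 5.16 ± 0.23 times that of INTS9 (SD, n = 3, shNT). In shARMC5 cells these ratios were 1.41 ± 0.17 and 5.22 ± 0.24 (SD, n = 3). They differed from those of shNT cells by less than the SD of either group.

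Cleavage factor I binds UGUA upstream of the cleavage site and favors distal poly(A) sites. It consists of NUDT21 and either CPSF6 or CPSF7. None of the 3 genes was called. NUDT21 was the highest with 160 ± 10.3 TPM and CPSF7 the lowest with 70.2 ± 2.7 TPM (SD, n = 3, shNT). NUDT21 was at 232, 245 and 242 CPM in shARMC5 and at 244, 251 and 236 CPM in shNT cells, and the groups overlapped. Its log2 fold change went from -0.03 to -0.12 with an offset for transcript length in edgeR or DESeq2. CPSF6 stood at 1.24 ± 0.051 times the TPM of CPSF7 in shARMC5 and at 1.32 ± 0.049 times in shNT cells (SD, n = 3, two-sided exact permutation test P = 0.3).

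Cleavage factor II consists of PCF11, which binds the C-terminal domain of Pol II and promotes termination, and CLP1, an RNA 5′ kinase that also serves the tRNA splicing endonuclease. CLP1 (ENSG00000172409) spans chromosome 11 from 57648188 to 57661865 on the plus strand of GRCh38. It was at 19.7, 20.7 and 21.5 CPM in shARMC5 and at 17.4, 18.8 and 17.4 CPM in shNT cells. The lowest shARMC5 library lay above the highest shNT library. The log2 fold change was 0.21 ± 0.07 (SE, 95% interval from 0.07 to 0.35, adjusted P = 0.0906 by edgeR). With 488 to 816 reads per library and 14.8 ± 0.62 TPM (SD, n = 3, shNT), CLP1 had the lowest level of the 42 genes after INTS2 and INTS3 as listed. Its call was lost when any library but shNT replicate 2 was left out, with adjusted P values from 0.106 to 0.257 in edgeR's test, with DESeq2 (adjusted P = 0.232), with library size as the only scaling (0.127) and with an offset for transcript length in edgeR (0.224) or DESeq2 (0.185). Over 15 alternatives the adjusted P ran from 0.0563 to 0.257.

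CLP1 was read almost wholly from 1 transcript, CLP1-205, which held 91.8% ± 7.1 of its TPM in shARMC5 and 93.9% ± 6.0 in shNT cells (SD, n = 3). CLP1-205 was at 15.7, 15.6 and 17.0 TPM in shARMC5 and at 14.8, 14.5 and 12.5 TPM in shNT cells, with no overlap. Fitted on its own, its log2 fold change was 0.23 ± 0.09 (SE, adjusted P = 0.981 by edgeR over transcripts). CLP1-206, the next in level, held at most 24.1 reads. The annotated extent of CLP1 overlaps YPEL4 on the other strand from 57648188 to 57649944 and the host RNA of MIR130A on the same strand. CLP1-205 itself starts at 57657762, outside both. PCF11, the partner of CLP1, was at 95.4, 89.6 and 91.2 CPM in shARMC5 and at 97.9, 89.8 and 93.9 CPM in shNT cells, and its 95% interval ran from -0.11 to 0.06. It had 33.1 ± 3.8 TPM (SD, n = 3, shNT).

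CstF binds the GU-rich stretch downstream of the cleavage site through CSTF2 or its intronless copy CSTF2T, held by CSTF3 together with CSTF1. None of the 4 genes was called. CSTF3 was the highest with 78.0 ± 2.2 TPM (SD, n = 3, shNT). It was at 133, 138 and 133 CPM in shARMC5 and at 126, 131 and 125 CPM in shNT cells. In CPM the lowest shARMC5 library lay just above the highest of shNT, and the log2 fold change was 0.08 ± 0.03 (SE, adjusted P = 0.211 by edgeR). In TPM the groups overlapped, and with an offset for transcript length the log2 fold change was 0.04 (adjusted P = 0.763 by edgeR). CSTF1 had a log2 fold change of -0.09 ± 0.06 (SE), and CSTF2T was the lowest with 15.6 ± 1.1 TPM (SD, n = 3, shNT). CSTF2 stood at 2.65 ± 0.046 times the TPM of CSTF2T in shARMC5 and at 2.68 ± 0.21 times in shNT cells (SD, n = 3), a difference smaller than the SD of either group.

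The tail is made by poly(A) polymerase, PAPOLA or its relative PAPOLG, and its length is set with the nuclear poly(A) binding protein PABPN1. These genes differed widely in level. PABPN1 was first with 223 ± 1.6 TPM and PAPOLA second with 207 ± 7.5 TPM, while PAPOLG had 15.9 ± 1.5 TPM (SD, n = 3, shNT). PABPN1 shares its sequence with an annotated readthrough gene, BCL2L2-PABPN1, so that its level depends on how salmon divided the reads. PAPOLA was at 440, 446 and 441 CPM in shARMC5 and at 445, 443 and 434 CPM in shNT cells. With 11115 to 17587 reads it was measured most precisely of the 42 (standard error 0.024), and its 95% interval ran from -0.05 to 0.06. PAPOLG was at 31.6, 28.9 and 27.3 CPM in shARMC5 and at 33.2, 31.7 and 28.0 CPM in shNT cells. The groups overlapped, and the interval from -0.23 to 0.07 leaves more room. XRN2, the exonuclease that follows cleavage, had 105 ± 3.7 TPM (SD, n = 3, shNT) and an interval from -0.07 to 0.06.

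**Figure D4:**
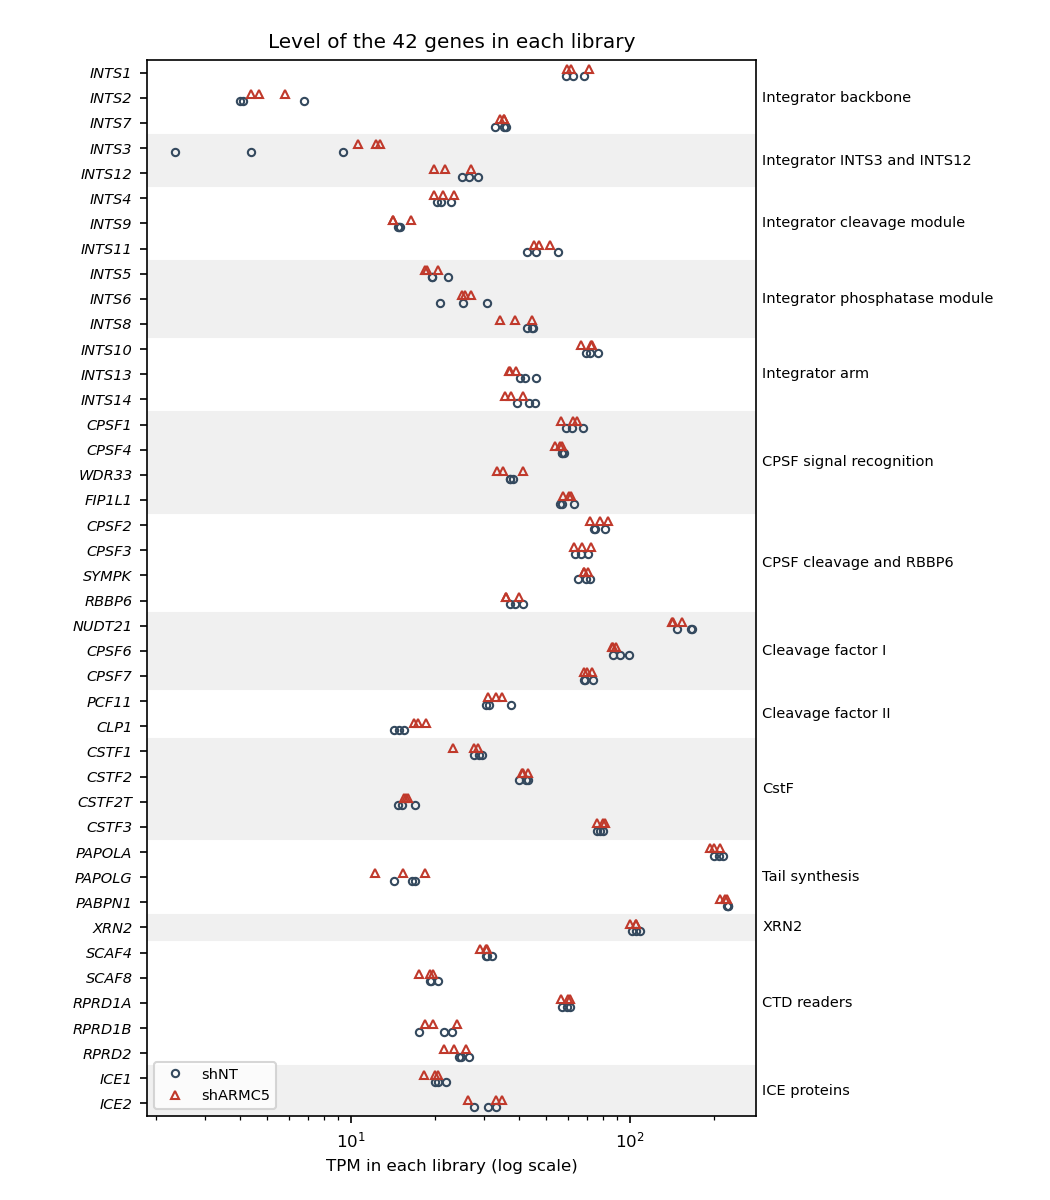
Level of each of the 42 genes in TPM on a log scale, grouped by role, with 1 symbol per library, circles for shNT and triangles for shARMC5. PABPN1, PAPOLA and NUDT21 lie highest, and INTS2 and INTS3, shown from their matched transcripts alone, lie lowest.

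Among the proteins that read the C-terminal domain of Pol II, SCAF4 and SCAF8 prevent use of early poly(A) sites, and RPRD1A, RPRD1B and RPRD2 bring phosphatase activity to Pol II. None of the 5 genes was called. RPRD1A was the highest with 58.9 ± 2.0 TPM and SCAF8 the lowest with 19.6 ± 0.71 TPM (SD, n = 3, shNT). SCAF4 stood at 1.60 ± 0.053 times the TPM of SCAF8 in shARMC5 and at 1.58 ± 0.013 times in shNT cells. RPRD1A stood at 2.88 ± 0.31 times the TPM of RPRD1B in shARMC5 and at 2.88 ± 0.33 times in shNT cells (SD, n = 3). The values of the groups overlapped for both ratios. ICE1 and ICE2, subunits of the little elongation complex that serves small nuclear RNA genes, had log2 fold changes of -0.08 ± 0.04 (SE, adjusted P = 0.285 by edgeR) and -0.07 ± 0.04 (SE, adjusted P = 0.415). ICE1 had 20.8 ± 1.0 TPM and ICE2 30.5 ± 2.8 TPM (SD, n = 3, shNT), and their groups overlapped. The log2 fold change of ICE2 turned to 0.06 with an offset for transcript length in edgeR or DESeq2.

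Several of these genes are known to make transcripts that end early, and their ends were looked at because the genes encode the machinery that chooses ends. The last 30 bases of such transcripts are shown, for CSTF3 and CPSF6 beside those of a main transcript, and for CLP1 as the gene called, from GENCODE 44 on GRCh38, 5′ to 3′ on the strand of the transcript, with the hexamer AATAAA in capitals where the window holds it.
CLP1-205, chr11:57661836-57661865: cattttAATAAAtatttttgccatatcata
CSTF3-201, chr11:33084584-33084613: tcctttaaaaAATAAAaggattcagaaaca
CSTF3-203, ends in an intron, chr11:33140966-33140995: ttcatgattatggttaggaggaaaatgtta
RBBP6-204, ends in an intron, chr16:24549372-24549401: tttcttgcAATAAAaaatgtttggagtgta
WDR33-202, ends in an intron, chr2:127735388-127735417: tctgaccttcaAATAAAacttattatgtat
WDR33-204, ends in an intron, chr2:127762533-127762562: tggcattgctgcttgtttacttttgttgat
CPSF6-201, nearer end, chr12:69269910-69269939: tgtagtgttgtAATAAActgtttaatgggg
CPSF6-202, farther end, chr12:69274329-69274358: tattgaaAATAAAacaaacttttgataaga

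The hexamer was searched on the transcript strand alone, in the last 30 bases. It was in the most abundant transcript of 24 of the 42 genes, 57.1%. Over all genes the share was 50.1%, from the most abundant transcripts of 13188 of the 13737 genes tested. Together with ATTAAA, counted where AATAAA was absent, the numbers were 29 of 42, 69.0%, and 62.2%. Over all transcripts tested the order was the other way, with AATAAA in 32.1% of the 209 of these genes and 34.2% of all 49809, and either hexamer in 37.3% and 43.0%. A match describes the letters of the window and not the use of a site.

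The short transcripts had few reads, and the shares of the groups overlapped for each of them. RBBP6-204, which holds 3 exons, took 7.73%, 2.83% and 2.58% of the TPM of RBBP6 in shARMC5 and 5.08%, 2.76% and 3.58% in shNT cells, from 10.5 to 40.8 reads. The difference of the means was 0.569 percentage points (two-sided exact permutation test P = 0.9). CSTF3-203 took 7.17%, 6.24% and 4.28% of CSTF3 in shARMC5 and 9.39%, 5.27% and 5.72% in shNT cells (exact permutation test P = 0.7). WDR33-204 took 10.1%, 7.82% and 10.04% of WDR33 in shARMC5 and 8.71%, 8.92% and 8.28% in shNT cells (exact permutation test P = 0.4). WDR33-202 stayed under 1% in every library.

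CPSF6 has transcripts with the nearer end, CPSF6-201 and CPSF6-203, and one with the farther end, CPSF6-202, which is 6584 bases long. CPSF6-202 made up 17.5%, 15.8% and 16.2% of the 3 in shARMC5 and 16.3%, 16.3% and 18.2% in shNT cells. The groups overlapped, and the means differed by -0.427 percentage points (exact permutation test P = 0.5). This split rested on more reads, since CPSF6-202 held 1332 to 2094 per library.

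**Figure D5:**
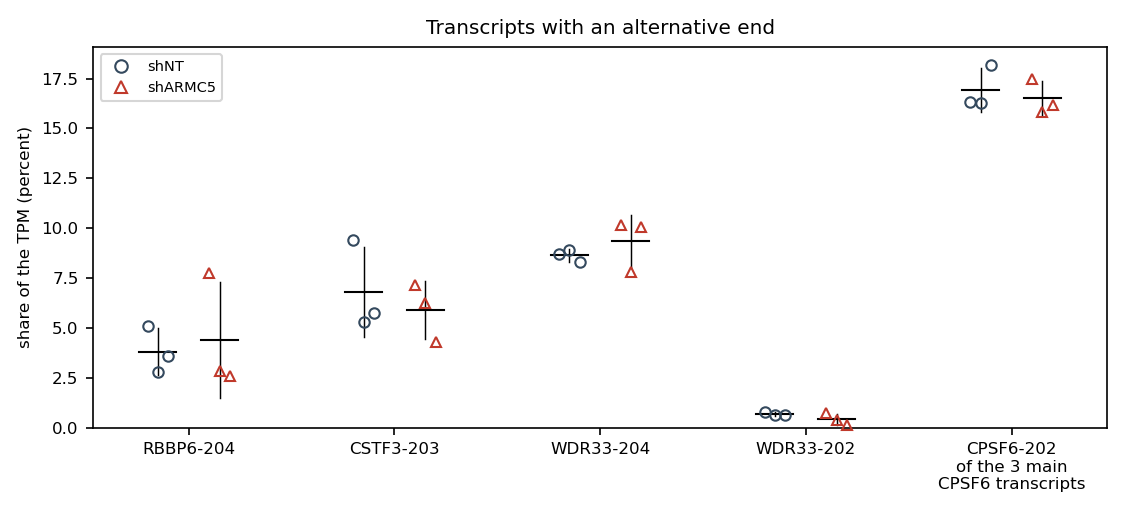
Share of the TPM of RBBP6, CSTF3 and WDR33 held by the transcripts that end in an intron, and share of CPSF6-202 among the 3 main CPSF6 transcripts, in percent. Each symbol is 1 library, circles for shNT and triangles for shARMC5, with the mean and SD of 3 as lines. The groups overlap for each transcript.

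Of the 464 listed transcripts of the 42 genes, 209 could be tested, and 0 were called with edgeR, where 0.00803% of all 49809 transcripts were. An unadjusted P value under 0.05 was found for 10 of the 209, where 4.93% of all transcripts had one. DESeq2, which called 1349 or 2.71% of all transcripts, called 4 of the 209, INTS7-204 as higher and INTS14-217, INTS4-201 and PAPOLA-209 as lower. INTS7-204 had a log2 fold change of 0.54 ± 0.17 (SE, adjusted P = 0.0768 by DESeq2), and INTS4-201 one of -1.56 ± 0.47 (SE, adjusted P = 0.0450 by DESeq2). PAPOLA-209, marked as a retained intron, held 0 reads in the 3 shARMC5 libraries and 31.0, 10.7 and 59.9 reads in shNT cells. The main transcript of the gene, PAPOLA-201, held 64.6% ± 2.7 of its TPM in shARMC5 and 61.4% ± 1.3 in shNT cells (SD, n = 3). CSTF3-201 held 88.1% ± 1.0 of CSTF3 in shARMC5 and 83.8% ± 2.2 in shNT cells (SD, n = 3), without overlap (exact permutation test P = 0.1). PCF11 was split nearly evenly between PCF11-201 and PCF11-204, with 37.0% ± 2.4 and 36.9% ± 0.85 of its TPM in shNT cells (SD, n = 3). PCF11-204 ends inside an exon of PCF11-201. For WDR33, RBBP6, INTS6 and PAPOLA, the leading transcripts were not called either. They were PAPOLA-201 and PAPOLA-220, WDR33-201 and WDR33-205, RBBP6-201 and RBBP6-202, and INTS6-220 and INTS6-208.

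A further 67 genes of the same pathways were counted as 6 lists, and 66 could be tested. Of these, 2 were higher and 0 lower with edgeR, where 7.75% of all genes were called, and 13 had an unadjusted P value under 0.05, where 18.1% of all genes had one. PABPC4, a cytoplasmic poly(A) binding protein, was at 372, 370 and 387 CPM in shARMC5 and at 334, 346 and 349 CPM in shNT cells. All shARMC5 libraries were above those of shNT, with a log2 fold change of 0.13 ± 0.03 (SE, adjusted P = 0.00848 by edgeR). It was the 1 gene called of 14 tested for poly(A) site choice and tail length. PPP2R1A, the scaffold subunit of the phosphatase that Integrator holds, was at 277, 287 and 286 CPM in shARMC5 and at 259, 269 and 270 CPM in shNT cells. It was higher by 0.09 on the log2 scale (SE 0.03, adjusted P = 0.0605), the 1 gene called of 11 Integrator partners. The call of PPP2R1A was lost when shARMC5 replicate 2 or 3 or shNT replicate 1 or 3 was left out, with adjusted P values from 0.104 to 0.236 in edgeR's test, with library size as the only scaling (0.106) and with an offset for transcript length in edgeR (0.386) or DESeq2 (0.338). That of PABPC4 was lost with the offset in edgeR (adjusted P = 0.218). Over 14 alternatives the log2 fold change ran from 0.08 to 0.11 for PPP2R1A and from 0.10 to 0.15 for PABPC4. No gene was called among 9 phosphatases and adaptors of termination, 16 genes of early termination and nuclear RNA decay, 6 genes of histone pre-mRNA processing and 10 genes of small nuclear RNA transcription. Their median log2 fold changes were 0.02, 0.01, 0.03 and -0.04.

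PPP1R10, which anchors protein phosphatase 1 to the termination machinery, repeated what was seen for INTS3. Its listed reads gave 0, 39.5 and 12.0 CPM in shARMC5 and 48.0, 54.3 and 53.8 CPM in shNT cells, a log2 fold change of -1.55 ± 1.16 (SE, adjusted P = 0.583 by edgeR). With a run of 7 unmatched transcripts of which 4 have lengths of its own, the log2 fold change was -0.03 ± 0.03 (SE).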

How the data were processed

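Reads of 6 libraries had been trimmed by the authors with cutadapt 4.2 and quantified with Salmon 1.9.0 on hg38, which estimates counts per transcript. The authors deposited these estimated counts and TPM for 177456 transcripts. Identifiers were matched without version to GENCODE 44 of GRCh38, because the sources used here do not name the transcript set, and 11923 transcripts without a match were left out. Estimated counts were summed per gene and rounded, and TPM was summed. Genes that reached 10 counts in 3 or more libraries were tested with edgeR 4.0.16 (quasi-likelihood F test, robust, TMM), and transcripts likewise on rounded counts. Standard errors come from the F statistic. The paper instead tested genes with DESeq2, after the same filter and at the same threshold of 0.1. DESeq2 was an alternative here and called neither CLP1 nor INTS14, with or without a length offset. Alternatives were DESeq2 1.42.0 and its size factors, library size only, length offsets, a minimum of 1 count, the replicate number as a term, a threshold of 0.05, left-out libraries and unmatched transcripts added to the gene listed before them. Adding runs by their lengths was chosen after seeing the data. Code was tested on simulated data. The 42 genes and all lists were chosen with earlier results of these data known. Every member is named, genes called by edgeR are given in full, and for each role the members with the highest and lowest TPM. RBBP6-204, CSTF3-203, WDR33-202, WDR33-204, CPSF6-202, PAPOLA-209, INTS7-204, INTS4-201 and PPP1R10 were named after their values were seen. Counting error covers reads, which carry no molecular identifiers. Some transcript ends are not reported here.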

Additional observations from a re-analysis of the deposited data

How the results depend on the processing

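The counts of called genes were small and close to the threshold. Among the 42 genes, 0 were called higher with library size only in edgeR, with DESeq2, with a length offset in edgeR or DESeq2 and at an adjusted P value under 0.05, and leaving out libraries gave 0 to 1. Likewise 0 were called lower with DESeq2, with a length offset in edgeR or DESeq2 and at 0.05, and 0 to 1 without single libraries. CLP1 was called in 6 of 15 alternatives and INTS14 in 6 of 15, and neither changed sign. Their log2 fold changes ran from 0.18 to 0.26 and from -0.15 to -0.11. Of the 40 other genes, 36 were called in no alternative, and the 4 exceptions were INTS1, INTS2, INTS12 and CSTF3. The sign was kept in every alternative by 25 of the 42 genes. The median log2 fold change of the 42 was -0.025 with library size only, 0.00052 and -0.0018 with a length offset in edgeR and DESeq2, -0.018 with unmatched runs added, and -0.023 to -0.0055 without single libraries. Of the other pathway genes, 1 was called higher with library size only and at 0.05, 0 with a length offset in edgeR, and 1 to 2 without single libraries. With a minimum of 1 count 2 were called lower, and 0 to 2 without single libraries. With DESeq2 1 transcript of the 42 genes was called higher and 3 lower, where 2.71% of all transcripts were called. The shares called of all genes were 6.94% with library size only, 6.38% with DESeq2, 1.71% and 4.13% with a length offset in edgeR and DESeq2, 4.92% at 0.05, 7.18% with a minimum of 1 count and 3.97% to 7.996% without single libraries. The cause of these changes was not tested.

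Whether the replicate numbers pair the libraries was not settled, and the fit used throughout has no term for them. Over all genes tested, the deviations of same-numbered libraries from their group means correlated at -0.014, -0.0059 and -0.022. Yet more genes were called with the number as a block, 12.9% of all genes beside 7.75% without it. With the replicate number as a block, 2 of the 42 genes were called higher and 2 lower, CSTF3 (adjusted P = 0.0925) and INTS1 (adjusted P = 0.0470) being added, and 5 other pathway genes were called higher and 4 lower, where 12.9% of all genes were called with the block. With the block 0 of all 49809 transcripts were called, those of the 42 genes included.

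CLP1 with 488 reads or more and INTS3 with 253 or more had the fewest reads beside INTS2, and short transcripts with under 41 reads cannot show small shifts. What the unmatched transcripts are was taken from their lengths or their place in the files.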
